A study of Homo sapiens with 4 samples.

Results

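The genes described here build and tension the actin cytoskeleton, or belong to the serum response factor (SRF) and YAP systems that read its state. They were taken by name from a list of 53 symbols, which hold 51 distinct genes because CYR61 is CCN1 and CTGF is CCN2. Of these, 49 stand among the 17472 genes of the deposited table, and ACTA2 and ANKRD1 were not analysed here. No gene of that table is at 0 in any library, so it appears to leave out genes that went unread in a library. The values are normalised read counts per gene from poly(A) RNA of H1, an established human embryonic stem cell line grown in E8, a defined medium with FGF2 and TGF-beta. The MEK5DD group has 2 libraries of H1 cells. They overexpress MAP2K5 (MEK5, the kinase that activates ERK5) with residues changed to Asp, brought in by lentivirus and selected with puromycin. The WT group has 2 libraries of H1 cells without it, in the same medium. The labels describe 1 MEK5DD line and no line given virus and puromycin alone, so effects of MEK5DD, of delivery and selection, and of that line cannot be told apart. They do not say whether replicates were separate cultures, so p-values measure only how these libraries vary, which may be technical.

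SRF binds the CArG box in promoters of genes for actin, its partners and its adhesions. Its cofactors of the MRTF family are held by free actin monomers and released when filaments form, and myocardin is the cofactor of heart and smooth muscle. YAP and its relative TAZ (gene WWTR1) bind DNA through TEAD factors, and the LATS kinases keep both in the cytoplasm. Human pluripotent stem cells grow as tight epithelial colonies with actin bundles and adhesions at their rim, and actomyosin tension affects their survival after dissociation.

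The MEK5DD libraries held 17539654 and 15756339 reads and the WT libraries 17628945 and 14908486, recovered from the normalised values. MAP2K5 itself had 3382 and 3558 normalised reads in MEK5DD cells and 344 and 315 in WT cells, 10.5-fold higher, the direction the labels give, though a count per gene mixes introduced and native transcripts. The MEK5DD pair differed within itself more than the WT pair (chi-square per degree of freedom 6.09 and 1.87). The spread of the MEK5DD pair also exceeded that of the WT pair in 36 of the 49 actin, SRF and YAP genes. The cells had high levels of the pluripotency genes POU5F1 (42386 and 38116 in MEK5DD, 39714 and 38568 in WT), LIN28A (30694 and 27582 in MEK5DD, 32521 and 31577 in WT) and DNMT3B (19115 and 19241 in MEK5DD, 18767 and 18745 in WT). Summed over 11 pluripotency markers the level was 147033 and 139445 in MEK5DD cells and 145375 and 143296 in WT cells. By the limma test described below 1 marker was higher, NANOG (log2 fold change 0.26, adjusted p = 0.0117), and 1 lower, SOX2 (-0.20, adjusted p = 0.0437). Neither passed without limma's mean-variance trend (adjusted p = 0.168 for NANOG and 0.238 for SOX2).

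In MEK5DD cells transcripts of transgelins, calponin 1, caldesmon, myosin light chains, several tropomyosins, thymosin beta-10 and TEAD4 were higher, while SORBS2, an adhesion and Z-disc scaffold gene, was lower. The cytoplasmic actins, SRF, YAP1 and the standard YAP targets CYR61 and CTGF did not pass the test. A gene is called here where limma's moderated test on log2(value + 1) gave an adjusted p of at most 0.05 over 15721 genes. Of the 49 genes, all of which were tested, 17 (34.7%) were called higher and 5 (10.2%) lower in MEK5DD, against 7.69% and 6.47% of all genes tested. That is 22 (44.9%) called, against 14.2%. The 49 genes were chosen with earlier results of these data known, so these shares are a description. ACTG2 passed the filter on low values only through its MEK5DD values. The median log2 fold change was 0.12 over the 49 genes and -0.00 over all genes tested, and 14 of the 22 called genes changed by less than 0.5 on the log2 scale. Both MEK5DD values lay above both WT values for 29 genes and below them for 11, and the groups overlapped for 9. Over all genes tested those shares were 28.2% above and 28% below.

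**Figure D1:**
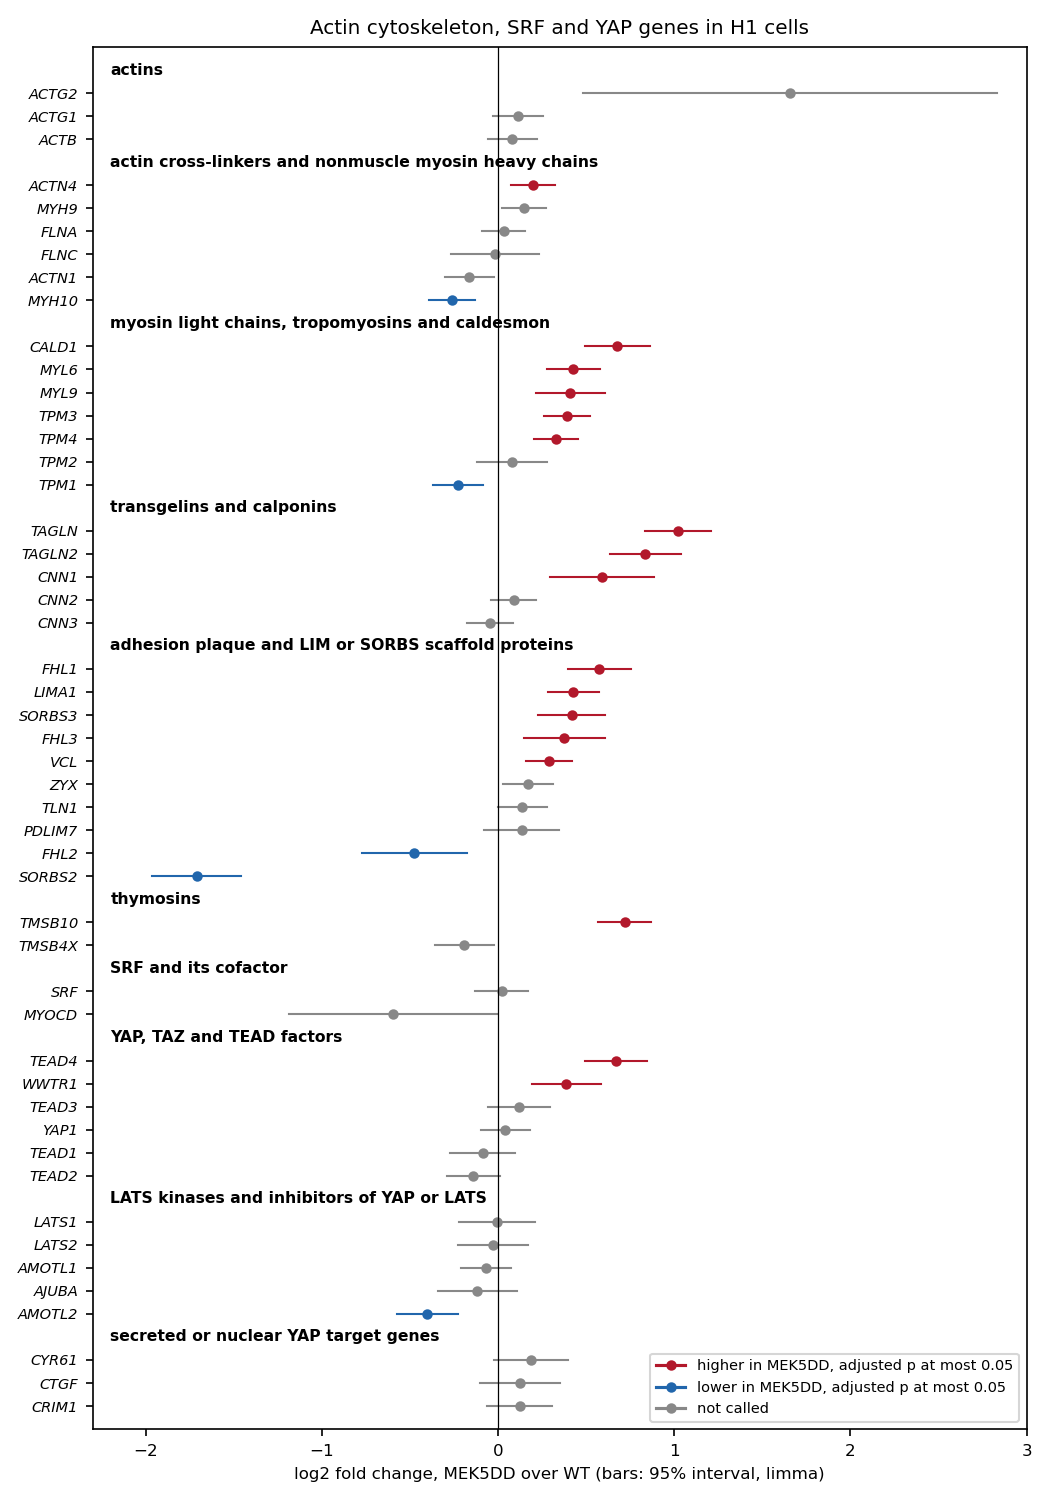
Log2 fold change of each gene, MEK5DD over WT, by role, with 95% intervals from limma (n = 2 libraries each); red and blue mark genes called higher and lower, grey those not called. The genes called higher gather among the myosin light chains, tropomyosins, transgelins and adhesion genes, and SORBS2 at -1.71 lies lowest.

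How many genes were called depended on the model and on the libraries. Calls held in the same direction in all 4 fits that left out 1 library for 11 of the 49 genes (TAGLN, TAGLN2, CNN1, CALD1, MYL6, TPM3, FHL1, LIMA1, TMSB10 and TEAD4, higher, and SORBS2, lower), against 5.51% of all genes tested. Leaving out WT replicate 1 or WT replicate 2 left 12 and 13 of the 49 called, where 7.61% and 7.38% of all genes were. Leaving out MEK5DD replicate 1 or MEK5DD replicate 2 gave 27 and 31, where 23.8% and 29.4% of all genes were called. Such fits take their error from the group that keeps both libraries and assume that the lone library varies alike. The MEK5DD pair varied more than the WT pair, so that assumption is not borne out here. For ACTN4 the log2 fold change was 0.198 (SE 0.058) with all 4 libraries. Without WT replicate 1 or 2 it was 0.209 and 0.187 (SE 0.122 each), and without MEK5DD replicate 1 or 2 0.191 and 0.2045 (SE 0.046 each). Calls gained or lost in such fits are a description. Without limma's mean-variance trend 3 of the 49 remained called (2.79% of all genes), namely TAGLN (adjusted p = 0.0294), TEAD4 (0.0475) and SORBS2 (0.0282), and the other 19 had an adjusted p from 0.0596 (TMSB10) to 0.234 (ACTN4). On the recovered reads edgeR called 23 of the 49 (14.7% of all genes), the same 22 and ACTG2. DESeq2 called 18 (8.64% of all genes) and lost ACTN4, FHL2, FHL3 and TPM1.

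The transcription factor SRF stands at the head of the first system, and its own level was flat. SRF (chromosome 6, 43171299 to 43181507, GRCh38) had 1406 and 1361 normalised reads in MEK5DD cells and 1376 and 1352 in WT cells. The groups overlapped, with a log2 fold change of 0.02 (95% interval -0.13 to 0.17, adjusted p = 0.883). MYOCD, which encodes myocardin, was near the low end of what was tested, with 23.6 and 27.9 in MEK5DD cells and 35.2 and 43.7 in WT cells. Both MEK5DD values were the lower ones, but the difference of -0.59 (SE 0.27) did not pass (adjusted p = 0.177).

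CArG boxes were looked for on both strands in RefSeq promoter windows (GRCh38.p14) reaching from 250 bases before to 50 after each start, which 40 of the 49 genes have. Such a box was present in 9 of the 40 (22.5%), against 1.6% of all 27305 genes with a window, or 11 of their 82 windows (13.4%) against 1.29% of all 35116 windows. Overlapping windows of FHL2 hold the same box, which the count by window takes more than once. The list was made in part of SRF targets, which are known in part by this box, so a higher share was built into it. The boxes with their surroundings are shown because they are the sequence feature by which SRF targets are known, and here they occur in genes that were higher, lower and not called. Each line runs 5′ to 3′ along the gene's strand, with the box in capitals. SRF itself has a pair of boxes 20 bases apart just before its start (chr6:43171209-43171268, plus strand), and 0.0313% of all windows hold 2 or more. CNN2 (chr19:1026489-1026558, plus strand) and ACTN1 (chr14:68977698-68977767, minus strand) were not called, TPM4 (chr19:16067335-16067404, plus strand) was higher and FHL2 (chr2:105438575-105438644, minus strand) lower in MEK5DD.
SRF: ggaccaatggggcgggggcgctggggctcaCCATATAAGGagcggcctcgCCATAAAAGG
CNN2: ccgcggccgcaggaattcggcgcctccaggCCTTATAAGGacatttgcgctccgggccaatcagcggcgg
ACTN1: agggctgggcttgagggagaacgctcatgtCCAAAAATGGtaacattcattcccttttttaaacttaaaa
TPM4: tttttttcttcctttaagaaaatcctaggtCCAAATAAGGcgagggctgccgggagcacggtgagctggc
FHL2: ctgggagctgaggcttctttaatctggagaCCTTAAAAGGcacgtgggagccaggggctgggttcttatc
The other genes with a box were ACTG2 (CCTTATATGG and CCTTTTTAGG), ACTG1 (CCATATATGG), FLNA (CCAATTAAGG) and FHL1 (CCTAAAATGG, in 1 of its 12 windows). FHL2 has a further box (CCTTATATGG) at another start. Of the 9 genes with a box 2 were called higher, 1 lower and 6 not at all, and of the 31 without one 11 were higher and 4 lower. TAGLN, ACTB, MYL9, SORBS3, MYOCD, TEAD1, TEAD4, CRIM1 and CYR61 have no window in the table used. The spread of boxes over called and uncalled genes is a description, and a window without a box says nothing of sites elsewhere.

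The actins are the filament subunits. Levels per kilobase divide by the merged exons of all annotated forms, which can be longer than the RNA present, so an order between genes is only approximate. By that measure ACTG1 (25202 in MEK5DD, 23254 in WT) and ACTB (17936 in MEK5DD, 16931 in WT) stood with the thymosins above all other genes described here. FLNA, the next in order by it, averaged 2039 in MEK5DD and 1993 in WT. ACTB, cytoplasmic beta-actin, had 66356 and 59878 normalised reads in MEK5DD cells and 59175 and 59985 in WT cells. One MEK5DD library was high and the other lay between the WT values, so the groups overlapped (log2 fold change 0.08, 95% interval -0.06 to 0.22, adjusted p = 0.454). ACTG1, cytoplasmic gamma-actin, had 79515 and 71345 in MEK5DD cells and 69762 and 69437 in WT cells. Its groups were apart but the difference of 0.11 (95% interval -0.03 to 0.26) did not pass (adjusted p = 0.285). Without MEK5DD replicate 2, the lower library for both, the log2 fold change was 0.1554 for ACTB and 0.1921 for ACTG1. Without MEK5DD replicate 1 it was 0.0072 for ACTB and 0.0357 for ACTG1. Their coding sequences are much alike, and the sources used here do not say how shared reads were assigned. ACTG2, the smooth muscle gamma-actin, was rare, with 16.4 and 12.0 in MEK5DD cells and 2.64 and 5.21 in WT cells. Both MEK5DD values were higher, with a log2 fold change of 1.66 (SE 0.54) that just missed the threshold (adjusted p = 0.0612). ACTG2 passed with edgeR (adjusted p = 0.0403) but not without limma's mean-variance trend (adjusted p = 0.0893), and DESeq2 gave it no adjusted p. With 1 library left out its log2 fold change ran from 1.27 (without WT replicate 1) to 2.04 (without WT replicate 2). It passed the filter on low values only through its MEK5DD values.

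Transgelins and calponins are small proteins that bind along actin filaments and are abundant in smooth muscle and spread cells, and 3 of these 5 genes were called higher and 0 lower. TAGLN (SM22-alpha; chromosome 11, 117199321 to 117204782, GRCh38) had 811 and 783 normalised reads in MEK5DD cells and 391 and 394 in WT cells. Each pair was tight and the groups were far apart, a 2.03-fold difference (log2 fold change 1.02, SE 0.09, adjusted p = 1.03e-05). TAGLN2, its form in non-muscle cells, had 1681 and 1475 in MEK5DD cells and 954 and 814 in WT cells. It was 1.79-fold higher with separate groups (log2 fold change 0.84, adjusted p = 1.04e-04). CNN1, calponin of smooth muscle, had 264 and 214 in MEK5DD cells and 161 and 154 in WT cells. The MEK5DD values were spread but both higher (1.51-fold, adjusted p = 0.0123). CNN2 and CNN3, the calponins of non-muscle cells, are more abundant per kilobase (1471 and 1419 in MEK5DD, 1383 and 1463 in WT) and were not called, with log2 fold changes of 0.09 and -0.04. CNN2 passed only in the fit without MEK5DD replicate 2, whose error comes from the WT pair alone. Part of the TAGLN exons (11.4% of bases) overlap PCSK7 on the other strand, whose level was 51.35% of that of TAGLN. The sources used here do not say whether counting used strand, and the part of PCSK7 reads in the TAGLN result was not tested.

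TAGLN and CNN1 are also markers of smooth muscle and of fibroblasts, so markers of those cells are given here. Of 5 smooth muscle markers tested, 1 was higher and 0 lower. DES (desmin) had 55.4 and 49.8 in MEK5DD cells and 19.4 and 19.8 in WT cells, and was called higher (adjusted p = 0.00392). SMTN had 235 and 235 in MEK5DD and 214 and 201 in WT, and LMOD1 had 24.5 and 16.0 in MEK5DD and 27.3 and 25.0 in WT, neither called. MYH11, the myosin of differentiated smooth muscle, was at 15.5 and 16.0 in MEK5DD cells and 22.0 and 18.8 in WT cells, and KCNMB1 was not analysed here. The summed level was 332 to 348 in MEK5DD and 284 to 288 in WT. Of 6 cardiac and skeletal muscle markers 1 was higher, the skeletal actin ACTA1, with 223 and 190 in MEK5DD cells and 49.3 and 60.4 in WT cells (3.72-fold, adjusted p = 1.74e-05). TNNT1 (541 and 409 in MEK5DD, 404 and 431 in WT) and ACTC1 (70.9 and 39.9 in MEK5DD, 36.1 and 43.7 in WT) were not called, and 6 other muscle markers were not analysed here. The sum was 680 to 901 in MEK5DD and 530 to 591 in WT. Of 6 fibroblast markers 2 were higher and 0 lower, with a sum of 8209 to 8554 in MEK5DD and 7138 to 7214 in WT. These were COL1A2 (1664 and 1517 in MEK5DD, 962 and 928 in WT) and COL1A1 (481 and 450 in MEK5DD, 289 and 309 in WT), while THY1 (6214 and 6072 in MEK5DD, 5775 and 5704 in WT), which stem cells also express, was not called. COL3A1, DCN, LUM, POSTN and FAP were not analysed here. PDGFRA, another fibroblast marker, was at 23.9 to 26.4 in MEK5DD cells and 17.7 to 30.8 in WT cells. In bulk RNA more cells of a type and more RNA per cell cannot be told apart, and the part of these markers in the results on TAGLN, CNN1 and the other contractile genes was not tested.

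**Figure D2:**
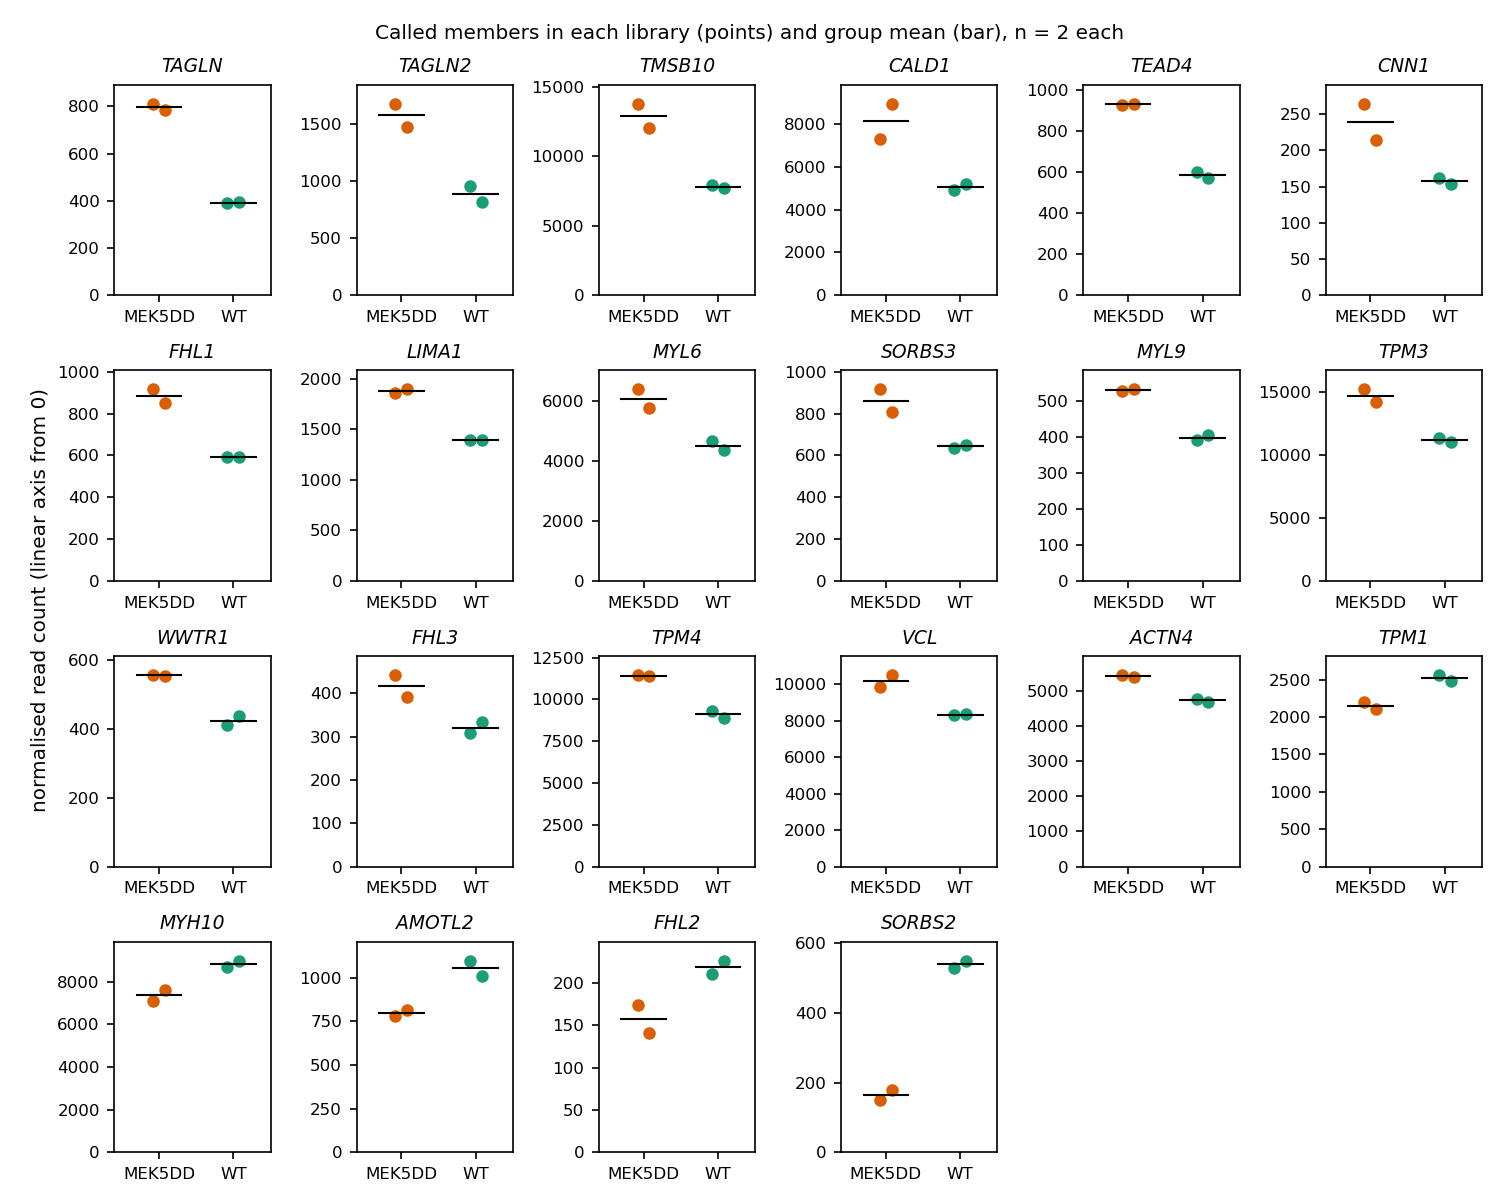
Normalised read count of the 22 called genes in each library (points) with the group mean (bar), on linear axes from 0, MEK5DD left and WT right. The MEK5DD and WT points do not overlap in any panel, and the last 5 panels, TPM1 to SORBS2, are the genes lower in MEK5DD.

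Myosin light chains, tropomyosins and caldesmon set how myosin II meets the filament, and here 5 of 7 genes were called higher and 1 lower (median log2 fold change 0.39). CALD1 (caldesmon, which binds actin and tropomyosin and restrains myosin) had 7331 and 8972 normalised reads in MEK5DD cells and 4921 and 5224 in WT cells. The MEK5DD libraries were unlike each other but both well above WT (1.60-fold, log2 fold change 0.68, SE 0.08, adjusted p = 2.44e-04). The essential light chain gene MYL6 had 6387 and 5762 in MEK5DD cells and 4670 and 4354 in WT cells (1.35-fold higher, adjusted p = 0.00144). It shares exon bases with SMARCC2 and MYL6B, whose levels were each about 15% of its own (15.6% and 15.4%). The regulatory light chain gene MYL9 had 526 and 531 in MEK5DD cells and 390 and 405 in WT cells, 1.33-fold higher (adjusted p = 0.0102). The call was lost with WT replicate 1 or WT replicate 2 left out, in fits whose error comes from the MEK5DD pair alone.

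The tropomyosins, coiled-coil proteins that line the filament, did not all move one way. TPM3 had 15240 and 14201 normalised reads in MEK5DD cells and 11376 and 11064 in WT cells (1.31-fold higher, adjusted p = 0.00105). TPM4 had 11447 and 11404 in MEK5DD cells and 9290 and 8902 in WT cells (1.26-fold higher, adjusted p = 0.00240; adjusted p = 0.126 without WT replicate 2). TPM1 had 2203 and 2106 in MEK5DD cells and 2561 and 2484 in WT cells, and it was lower (log2 fold change -0.23, adjusted p = 0.0360). Groups were separate for all 3, and TPM1 was not called when WT replicate 1 was left out (adjusted p = 0.416) or WT replicate 2 (adjusted p = 0.281). TPM2 overlapped between groups (log2 fold change 0.08, adjusted p = 0.633). It passed only in the fit without MEK5DD replicate 2, whose error comes from the WT pair alone. Per kilobase TPM1 made up 4.66% and 4.71% of the 4 tropomyosins in MEK5DD cells and 6.76% and 6.78% in WT cells. Its merged exons, 12876 bases, are the longest of the 4, so the size of that share depends on the length used. Counts summed over a gene do not show which of its splice forms, short or long, were present.

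Cross-linkers and the heavy chains of non-muscle myosin II changed little, 1 of 6 higher and 1 lower. ACTN4, an alpha-actinin, had 5436 and 5386 in MEK5DD cells and 4753 and 4682 in WT cells (log2 fold change 0.20, adjusted p = 0.0410). MYH10, the heavy chain of myosin IIB, had 7111 and 7620 in MEK5DD cells and 8686 and 8969 in WT cells (log2 fold change -0.26, adjusted p = 0.0131). Neither was called when WT replicate 1 was left out (adjusted p = 0.380 for ACTN4 and 0.150 for MYH10) or WT replicate 2 (0.460 for ACTN4 and 0.279 for MYH10), nor was ACTN4 with upper-quartile scaling (adjusted p = 0.0621). ACTN4 shares 14.2% of its exon bases with CAPN12, whose level was 0.193% of its own. Their nearest relatives leaned the other way without being called. On the log2 scale the difference was -0.16 for ACTN1 and 0.15 for MYH9, the heavy chain of myosin IIA (SE 0.06 each, adjusted p = 0.113 for ACTN1 and 0.108 for MYH9), each with separate groups. Without MEK5DD replicate 1 the log2 fold change was -0.2034 for ACTN1 and 0.1208 for MYH9. Without MEK5DD replicate 2 it was -0.1216 for ACTN1 and 0.1765 for MYH9. The filamins FLNA (0.03) and FLNC (-0.02) were not called.

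Among 10 genes for adhesion plaques and their LIM and SORBS scaffolds 5 were called higher and 2 lower. SORBS2 (ArgBP2; chromosome 4, 185585444 to 185956652, GRCh38) had the largest called change of the 49 genes, with 150 and 179 normalised reads in MEK5DD cells and 528 and 549 in WT cells. The groups were far apart, a 3.27-fold lower level in MEK5DD (log2 fold change -1.71, SE 0.12, adjusted p = 1.59e-06). Its relative SORBS3 (vinexin, a partner of vinculin) had 916 and 806 in MEK5DD cells and 635 and 651 in WT cells, 1.34-fold higher (adjusted p = 0.00753; adjusted p = 0.0601 without WT replicate 1). VCL, vinculin, which links talin to actin, had 9858 and 10490 in MEK5DD cells and 8293 and 8345 in WT cells. It was 1.22-fold higher (adjusted p = 0.00632) but not called with WT replicate 1 left out (adjusted p = 0.149) or WT replicate 2 left out (adjusted p = 0.133). VCL shares 11.1% of its exon bases with AP3M1, whose level was 11.8% of its own. LIMA1 (EPLIN, which stabilises filaments at junctions) had 1857 and 1897 in MEK5DD cells and 1391 and 1399 in WT cells, 1.35-fold higher with tight pairs (adjusted p = 0.00125). TLN1 (talin), ZYX (zyxin) and PDLIM7 had log2 fold changes of 0.14, 0.17 and 0.13 with MEK5DD above WT, and none was called with all 4 libraries. TLN1 and ZYX passed only in the fit without MEK5DD replicate 2, whose error comes from the WT pair alone.

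The FHL genes encode adaptors made only of LIM domains that shuttle between adhesions and the nucleus. FHL1 had 916 and 852 normalised reads in MEK5DD cells and 593 and 594 in WT cells. It was 1.49-fold higher (log2 fold change 0.57, SE 0.08, adjusted p = 6.69e-04) and held in every fit that left out 1 library. FHL2 had 174 and 142 in MEK5DD cells and 211 and 226 in WT cells, the opposite order (log2 fold change -0.47, adjusted p = 0.0380). FHL3 had 442 and 392 in MEK5DD cells and 307 and 334 in WT cells (log2 fold change 0.37, adjusted p = 0.0336). Groups were separate for all 3, but FHL2 and FHL3 were not called with WT replicate 1 left out (adjusted p = 0.0753 for FHL2, 0.283 for FHL3) or WT replicate 2 left out (0.210 for FHL2, 0.0796 for FHL3). FHL2 was also not called with MEK5DD replicate 2 left out (adjusted p = 0.0735).

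Beta-thymosins bind actin monomers and hold them out of the filament. TMSB10 (chromosome 2, 84905625 to 84906675, GRCh38) had 13770 and 11987 normalised reads in MEK5DD cells and 7887 and 7737 in WT cells. Both MEK5DD libraries were far above WT (1.65-fold, log2 fold change 0.72, SE 0.07, adjusted p = 3.25e-05). TMSB4X had 29467 and 24671 in MEK5DD cells and 31247 and 30294 in WT cells, both MEK5DD values being lower (log2 fold change -0.19, SE 0.08, adjusted p = 0.126). It passed as lower with the replicate number as a block, and with MEK5DD replicate 1 left out, a fit whose error comes from the WT pair alone. By reads, the ratio of TMSB10 to TMSB4X was 0.467 and 0.486 in MEK5DD cells and 0.252 and 0.255 in WT cells, so TMSB4X had more reads in every library. Per kilobase of merged exons the ratio was 1.61 and 1.67 in MEK5DD cells and 0.868 and 0.878 in WT cells. Which gene stands higher thus depends on the exon lengths used, while the ratio was higher in MEK5DD by both measures. Listed pseudogene copies of TMSB4X, ACTB and TPM3 each had less than 1% of the parent gene's level (at most 0.829%).

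Several related genes moved apart, and their ratio within a library does not depend on how libraries were scaled. The pairs were chosen after the values were seen, so the ratios are a description. Per kilobase SORBS3 over SORBS2 was 17.2 and 12.7 in MEK5DD cells and 3.38 and 3.34 in WT cells. FHL1 over FHL2 was 5.83 and 6.65 in MEK5DD cells and 3.11 and 2.90 in WT cells. TPM3 over TPM1 was 10.6 and 10.3 in MEK5DD cells and 6.82 and 6.84 in WT cells. None of these 3 ratios overlapped between the groups. MYH9 over MYH10 (1.59 and 1.43 in MEK5DD, 1.15 and 1.12 in WT) and ACTN4 over ACTN1 (2.95 and 3.09 in MEK5DD, 2.40 and 2.31 in WT) were also separate. By contrast ACTG1 over ACTB was nearly even, 1.41 and 1.40 in MEK5DD cells and 1.39 and 1.36 in WT cells.

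**Figure D3:**
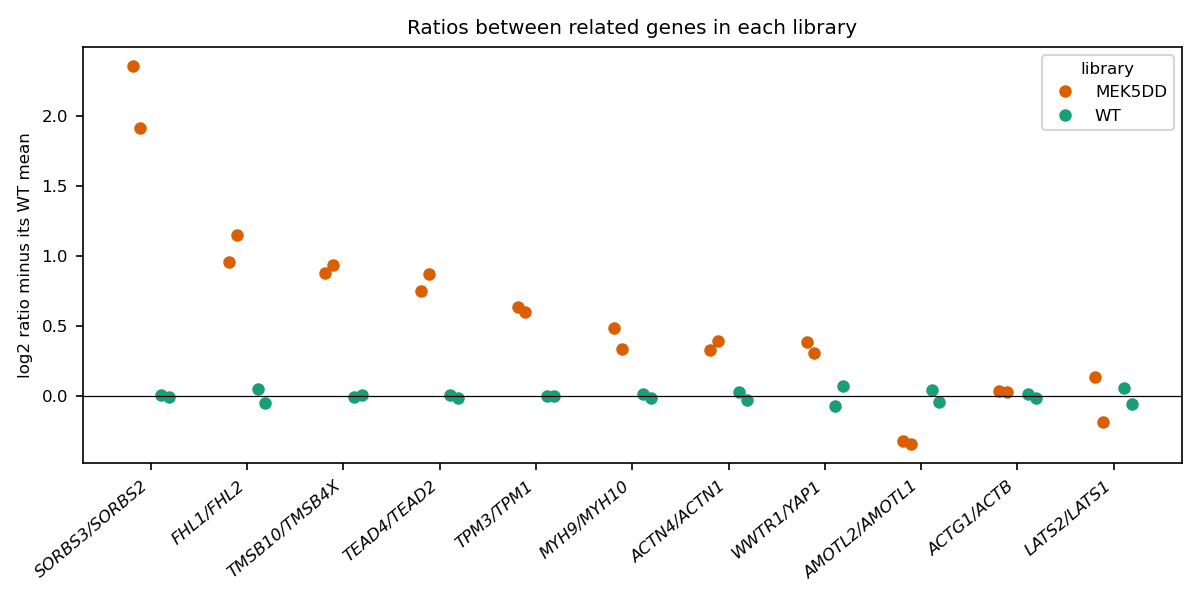
Log2 ratio between related genes in each library, minus the mean of the WT libraries for that pair, MEK5DD left of WT. SORBS3 over SORBS2 stands highest (difference of 2.13), AMOTL2 over AMOTL1 lies below WT (-0.33), and LATS2 over LATS1 overlaps (-0.02).

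YAP, TAZ and TEAD form the DNA-bound arm of the Hippo pathway, and 2 of these 6 genes were called higher. YAP1 was flat, with 3299 and 3475 normalised reads in MEK5DD cells and 3352 and 3226 in WT cells. The groups overlapped (log2 fold change 0.04, 95% interval -0.10 to 0.18, adjusted p = 0.718). WWTR1, which encodes TAZ, had 557 and 555 in MEK5DD cells and 412 and 437 in WT cells. It was 1.31-fold higher (log2 fold change 0.39, adjusted p = 0.0131) but was not called with WT replicate 1 left out (adjusted p = 0.172) or WT replicate 2 left out (adjusted p = 0.0602). WWTR1 shares 9.45% of its exon bases with an antisense gene that had less than 1% of its level (0.801%).

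The TEAD genes encode the factors that bring YAP and TAZ to DNA, and TEAD4 is known in the mouse for its role in the trophectoderm. TEAD4 (chromosome 12, 2959330 to 3040673, GRCh38) had 928 and 933 normalised reads in MEK5DD cells and 600 and 569 in WT cells. Its pairs were tight and apart, a 1.59-fold difference (log2 fold change 0.67, SE 0.08, adjusted p = 1.84e-04). TEAD1 had 1834 and 2195 in MEK5DD cells and 2072 and 2191 in WT cells, overlapping (log2 fold change -0.09, adjusted p = 0.557). TEAD2 had 2059 and 1906 in MEK5DD cells and 2225 and 2141 in WT cells, both lower in MEK5DD (log2 fold change -0.14, adjusted p = 0.212). Without MEK5DD replicate 1 the log2 fold change was 0.0427 for TEAD1 and -0.1958 for TEAD2. Without MEK5DD replicate 2 it was -0.2165 for TEAD1 and -0.0841 for TEAD2. TEAD3 had 797 and 794 in MEK5DD cells and 709 and 755 in WT cells (log2 fold change 0.12, adjusted p = 0.366). Per kilobase TEAD4 made up 26.5% and 26.9% of the 4 TEAD genes in MEK5DD cells and 18.3% and 17.5% in WT cells. TEAD2, by this measure the most abundant of the family in every library, made up 44.9% and 42.0% in MEK5DD cells and 51.7% and 50.3% in WT cells. As TEAD4 also marks trophoblast, markers of amnion and trophoblast were counted. Of 4 tested 1 was higher and 2 lower. TFAP2A, at 9.09 and 14.0 in MEK5DD cells and 6.17 and 2.08 in WT cells, was too low to be tested, and with it the sum was 309 and 314 in MEK5DD cells and 461 and 479 in WT cells. GABRP (154 and 174 in MEK5DD, 295 and 338 in WT) and KRT7 (42.7 and 34.9 in MEK5DD, 79.3 and 62.5 in WT) were lower, and GATA2 (64.5 and 54.8 in MEK5DD, 73.1 and 61.5 in WT) was not called. GATA3, the marker called higher, had 39.1 and 35.9 in MEK5DD cells and 7.05 and 15.6 in WT cells. The part of these markers in the TEAD4 result was not tested, and CGA, ISL1 and VTCN1 were not analysed here.

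Upstream of YAP, the LATS kinases phosphorylate it, AJUBA restrains LATS, and the motins AMOTL1 and AMOTL2 bind YAP and filaments at junctions. AMOTL2 (chromosome 3, 134355874 to 134375479, GRCh38) had 782 and 813 normalised reads in MEK5DD cells and 1097 and 1012 in WT cells. It was 1.32-fold lower (log2 fold change -0.40, SE 0.08, adjusted p = 0.00531; adjusted p = 0.125 without WT replicate 1). It was the 1 called gene of these 5, and it is itself a known target of YAP. LATS1 had 546 and 653 in MEK5DD cells and 602 and 598 in WT cells (log2 fold change -0.01, adjusted p = 0.977). LATS2 had 520 and 497 in MEK5DD cells and 542 and 496 in WT cells (log2 fold change -0.03, adjusted p = 0.881). The groups overlapped for both kinases and for AJUBA (-0.12), and AMOTL1 had a log2 fold change of -0.07. For AJUBA it was -0.2605 without MEK5DD replicate 1 and 0.0235 without MEK5DD replicate 2.

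The genes CYR61 and CTGF, which encode secreted matrix-associated CCN proteins and are standard readouts of YAP, were not called. CYR61 had 531 and 481 normalised reads in MEK5DD cells and 430 and 458 in WT cells (log2 fold change 0.19, 95% interval -0.02 to 0.39, adjusted p = 0.227). CTGF had 369 and 331 in MEK5DD cells and 322 and 319 in WT cells (log2 fold change 0.12, 95% interval -0.10 to 0.35, adjusted p = 0.486). CRIM1, a transmembrane protein that binds BMPs, had 785 and 839 in MEK5DD cells and 713 and 779 in WT cells (log2 fold change 0.12, 95% interval -0.06 to 0.31, adjusted p = 0.382). All 3 had both MEK5DD values above WT, and their intervals reach from a slight fall to at most 0.39 on the log2 scale. CYR61 passed only in the fit without MEK5DD replicate 2, whose error comes from the WT pair alone.

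The TEAD motif was searched as GGAATG on both strands, that is CATTCC on the other. It was present in the windows of 16 of the 40 genes (40%), against 16.7% of all genes with a window. Counted by window the shares were closer, 17 of 82 (20.7%) against 14% of all windows. The list was made in part of YAP and TEAD targets, so a higher share could be built into it. Of the 16 genes 4 were called higher, 4 lower and 8 not at all. The CTGF promoter (chr6:131951432-131951571, minus strand, RefSeq GRCh38.p14) is shown because it holds 3 motifs, in capitals, as 0.128% of all windows do, in a gene that was not called.
CTGF: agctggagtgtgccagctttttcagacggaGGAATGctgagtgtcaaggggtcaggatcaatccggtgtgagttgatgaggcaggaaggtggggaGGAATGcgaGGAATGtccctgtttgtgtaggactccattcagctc
The first motif lies at bases -169 to -164 before the start, and the others at -104 to -99 and -95 to -90. A match is a description of letters and not a measured binding site.

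Other genes of these pathways were counted from lists, beside the 7.69% and 6.47% of all genes called higher and lower. The lists too were chosen with earlier results of these data known, so the counts are a description. Of 19 further SRF and MRTF target genes 7 were higher and 0 lower (median log2 fold change 0.18). They include the LIM-domain genes PDLIM1 (5076 and 4670 in MEK5DD, 3087 and 3061 in WT), TES (2095 and 2037 in MEK5DD, 1353 and 1260 in WT) and CSRP1 (493 and 411 in MEK5DD, 319 and 296 in WT). TGFB1I1 (Hic-5, an adhesion adaptor; 84.5 and 83.7 in MEK5DD, 55.5 and 55.2 in WT) was called narrowly (adjusted p = 0.0498) and lost in every fit that left out 1 library (adjusted p from 0.0600 to 0.181). Of the SRF cofactor genes, ELK3 was higher (764 and 841 in MEK5DD, 629 and 601 in WT; adjusted p = 0.0511 without WT replicate 1 and 0.132 without WT replicate 2), ELK1 and ELK4 were not called, and MRTFA and MRTFB were not analysed here. All 5 smooth muscle markers tested above, DES among them, also stand in the list of further SRF and MRTF targets, so the 2 counts are not independent.

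Of 14 further YAP and TEAD target genes 4 were higher and 3 lower (median log2 fold change 0.43), so called members moved both ways. The coagulation receptor gene F3 had 207 and 181 in MEK5DD cells and 109 and 95.8 in WT cells, and RBMS3, which encodes an RNA-binding protein, had 199 and 266 in MEK5DD cells and 110 and 119 in WT cells. DOCK5, an activator of Rac, was also higher (544 and 661 in MEK5DD, 426 and 423 in WT). IGFBP3, which encodes a binding protein of insulin-like growth factors, was lower, with 25.4 and 25.9 in MEK5DD cells and 60.8 and 67.7 in WT cells (log2 fold change -1.29, adjusted p = 0.00312), and held in every fit that left out 1 library. FJX1 was lower (69.1 and 41.9 in MEK5DD, 100 and 90.6 in WT), but not with WT replicate 1 left out (adjusted p = 0.0812) or MEK5DD replicate 2 left out (adjusted p = 0.107). Among 20 Hippo kinase and scaffold genes 1 was higher and 1 lower (median -0.03). These were FRMD6 (710 and 767 in MEK5DD, 553 and 550 in WT; adjusted p = 0.0567 without WT replicate 2) and the motin AMOT, the relative of AMOTL2, which was lower (73.6 and 81.7 in MEK5DD, 150 and 127 in WT).

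Genes of filament branching, capping and membrane attachment come next. Of 25 branched actin, capping and ERM genes 6 were higher and 1 lower (median 0.13). The largest changes called in this list were in a pair of the ERM genes, which tether filaments to the membrane, with EZR (ezrin) at 14340 and 13831 in MEK5DD cells and 7141 and 6898 in WT cells, and MSN (moesin) at 5871 and 6022 in MEK5DD cells and 3308 and 3232 in WT cells. RDX (radixin), the other ERM gene, had 1604 and 1789 in MEK5DD cells and 1445 and 1473 in WT cells and was not called (adjusted p = 0.0780). WASF2 (5090 and 5052 in MEK5DD, 3949 and 3982 in WT) and ARPC3 (2308 and 2134 in MEK5DD, 1729 and 1779 in WT), which act in filament branching, lost their calls without WT replicate 1 (adjusted p = 0.0553 and 0.115), and ARPC3 also without WT replicate 2 (adjusted p = 0.0618).

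Fewer of these list calls held in all 4 fits that left out 1 library. They were 4 of the 7 SRF and MRTF targets, 4 of the 7 YAP and TEAD targets, 1 of the 2 Hippo genes (AMOT) and 2 of the 7 branched actin and ERM genes (EZR and MSN). Without the mean-variance trend the genes named from these lists lost their calls except EZR, MSN, DES and IGFBP3. Among the cell type markers named above, ACTA1 and COL1A2 kept theirs, and KRT7 was not called with WT replicate 1 left out (adjusted p = 0.225).

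**Figure D4:**
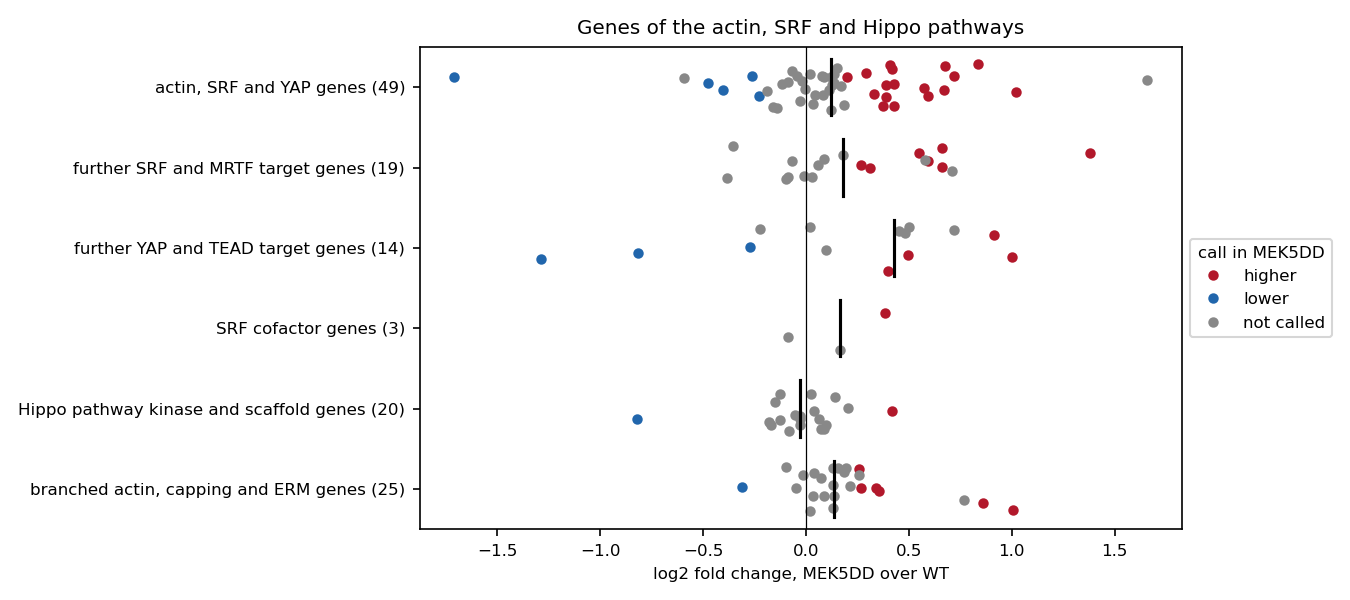
Log2 fold change of each tested gene, MEK5DD over WT, in the 49 actin, SRF and YAP genes and in 5 further lists (number of genes in brackets); the bar is the list's median and colours mark calls. The medians run from -0.03 (Hippo kinases and scaffolds) to 0.43 (further YAP and TEAD targets), and ACTG2 at 1.66, not called, lies farthest right.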

How the data were processed

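Per the submitters' processing notes, Trimmomatic 0.36, STAR, featureCounts 1.5.3, DESeq2 1.26.0 and build hg38 are named, with no role or order. The deposited signal is a table of gene counts normalised by the authors. Each value was a whole multiple of 1 step per library (100% of genes within 0.001), so reads were recovered by division; edgeR on these reads called 2306 genes. In MEK5DD replicate 2 the step was so close to 1 (0.997) that its recovery rests on the fit to whole numbers alone. The labels do not say that replicate numbers pair the samples. The correlation of same-numbered deviations was 0.0469, which cannot decide whether same-numbered libraries were handled together.

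The main test was limma 3.58.1 (R 4.3.3) with its trend option, on log2(value + 1), over the 15721 genes that reached 10 in 2 or more libraries, two-sided, with Benjamini-Hochberg adjustment and a threshold of 0.05. Folds come from log2(value + 1) and so understate changes of low genes. Alternatives were pseudocounts of 0.5 and 5, other filters and scalings, no trend, a replicate block, each library left out, edgeR 4.0.16 and DESeq2 1.42.0. The procedure was tested on simulated data. Levels per kilobase use merged exons of GENCODE v29 (GRCh38), which holds 17083 of the symbols; promoters are RefSeq's.

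Members and lists were chosen with earlier results of these data known. Values per library are given for every called member and for SRF, MYOCD, YAP1, WWTR1, the TEAD and LATS genes, ACTB and ACTG1, for up to 4 called genes of each pathway list with a mean of at least 50 and the largest change, and for the 3 most abundant markers of each cell type. ACTG2, TMSB4X, CYR61, CTGF, CRIM1, MYH11, PDGFRA, GATA3, TFAP2A, IGFBP3 and RDX fall outside that rule, and their values were known when they were chosen. 1 list of pathway genes is not reported here.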

Additional observations from a re-analysis of the deposited data

How the results depend on the processing

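Pseudocounts of 0.5 and 5, the filters, TMM and edgeR moved no count of calls by over 1.5 times; ACTG2 and MYOCD fell below the filter of a mean of 50. Upper-quartile scaling called 1189 genes higher and 1244 lower, against 1209 and 1017. Genes called numbered 2226, against 439 without the trend, 3349 with the replicate block, 1358 with DESeq2 and 1160 to 4629 with 1 library left out. The 17 members called higher became 2 without the trend and 11 to 26 with 1 library left out. The 5 called lower became 1 without the trend, 3 with DESeq2 and 1 to 9 with 1 library left out. The causes were not tested. The replicate block gave 18 higher and 6 lower, adding ACTG2 and TMSB4X, though the labels do not say that the numbers pair the samples.

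With 1 library left out, 7 genes changed sign, each uncalled where the sign turned. Their log2 fold changes ranged from -0.261 to 0.0235 (AJUBA), -0.135 to 0.122 (LATS1), -0.0912 to 0.0363 (LATS2, also 0.0042), -0.0025 to 0.0436 (SRF), -0.217 to 0.0427 (TEAD1), -0.101 to 0.0618 (FLNC, also 0.0140) and -0.0565 to 0.214 (TPM2).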
